A study of Mus musculus with 56 samples.

Results

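In mouse liver, 10 genes of the integrated stress response and of serine synthesis were followed through the day. They were taken by name and were the transcription factor genes Atf4, Atf5 and Ddit3, the response genes Ddit4, Sesn2, Trib3 and Chac1, and the amino acid synthesis genes Asns, Psat1 and Phgdh. All 10 were among the 25397 genes tested. The 56 livers came from female C57BL/6J mice aged 9 weeks, with no genetic change or drug in any group, that had been kept in 12 h of light and 12 h of darkness. For 7 days the animals ate only by day (daytime-restricted feeding, DRF) or only by night (nighttime-restricted feeding, NRF), and NRF served as the reference. Samples were taken at 7 times, given as zeitgeber time (ZT), where ZT0 is lights on: ZT0, 4, 8, 12, 16, 20 and 24. With 4 mice in each, there were 14 groups. DRF animals thus had food in the light phase and NRF animals in the dark phase.

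The integrated stress response begins with kinases that phosphorylate the translation initiation factor eIF2 when amino acids run short, when proteins misfold in the endoplasmic reticulum or when haem is lacking. General translation is then reduced, while the mRNAs of ATF4, ATF5 and CHOP (the product of Ddit3) are translated better, so that the amount of Atf4 mRNA need not follow the amount of ATF4 protein. ATF4 binds C/EBP-ATF response elements and raises genes for amino acid synthesis, amino acid uptake and feedback control. In liver, the pathway is known to respond to the amino acid supply and to fasting and feeding.

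Expression is given in scaled counts, that is, whole counts rebuilt out of the deposited table and divided by a library factor, so that 1 unit stood for 304 to 723 recovered counts. Without division by length they compare libraries and not genes. The sum of recovered counts was between 165 and 379 M (mega) in a library, and these counts are not reads. Correlations between replicates of a group, across genes, lay between 0.982 and 0.995. The livers carried high levels of 5 hepatocyte markers in every library, with a summed level of 94700 to 152000 scaled counts. Sums for 3 Kupffer cell markers ran from 323 to 762, and those for 3 erythroid markers from 299 to 1320. The single pancreatic acinar marker in the table ran from 0.115 to 0.768, and the single adipocyte marker was listed at 0 in 24 libraries. The part of these cells in the results was not tested. In whole liver, fewer cells of a type and less RNA per cell cannot be told apart.

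Per kilobase of exon, Atf5 was by far the most abundant of the 10 genes, with a mean level of 35.8 scaled counts per kb. Atf4 followed with 4.26, Sesn2 with 2.73, Trib3 with 1.8, Ddit3 with 1.53 and Ddit4 with 1.18 scaled counts per kb. Chac1 (0.291), Psat1 (0.201), Phgdh (0.134) and Asns (0.119 scaled counts per kb) were low in these livers. The scale of every limma test here, log2(scaled count + 1), understates a change, the more so the lower the gene. It does so most for these 4 genes, and also for Ddit3, Ddit4 and Trib3. Ratios of mean scaled counts are therefore given beside many of the tests.

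Under DRF, 6 of the 10 genes oscillated over 24 h (Atf5, Ddit4, Sesn2, Trib3, Chac1 and Asns), against 43.4% of all genes. Under NRF the first 5 of these oscillated, against 44.6% of all genes, and the same 5 were dual-oscillating, against 27.2%. A rhythm was called at an adjusted p below 0.05 when a rank test against cosine curves and a cosinor test were joined. The 24-h rhythm differed between the regimens in 7 genes, these 6 and Ddit3, against 38.7% of all genes (limma, regimen by cosine terms). No difference of rhythm was called for Atf4 (adjusted p = 0.484, limma), Psat1 (0.329) or Phgdh (0.178). When a median scaled count of at least 1 was required, the rhythm differed in Atf5, Ddit3, Ddit4, Sesn2 and Trib3. Chac1, Asns, Psat1 and Phgdh were then not tested, and 57.3% of all genes tested had a different rhythm. All 5 dual-oscillating genes had peak times 8 to 12 h apart between the regimens, the range called phase-inverted. Of the 6915 dual-oscillating genes in the table, 49.6% fell in that range, 25% were phase-locked (0 to 4 h) and 25.4% lay between. Over the 7 times as separate groups, 8 of the 10 genes differed under DRF (the 7 above and Atf4) and the 5 dual-oscillating genes under NRF, where 40.4% and 44.7% of all genes did (limma).

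**Figure D1:**
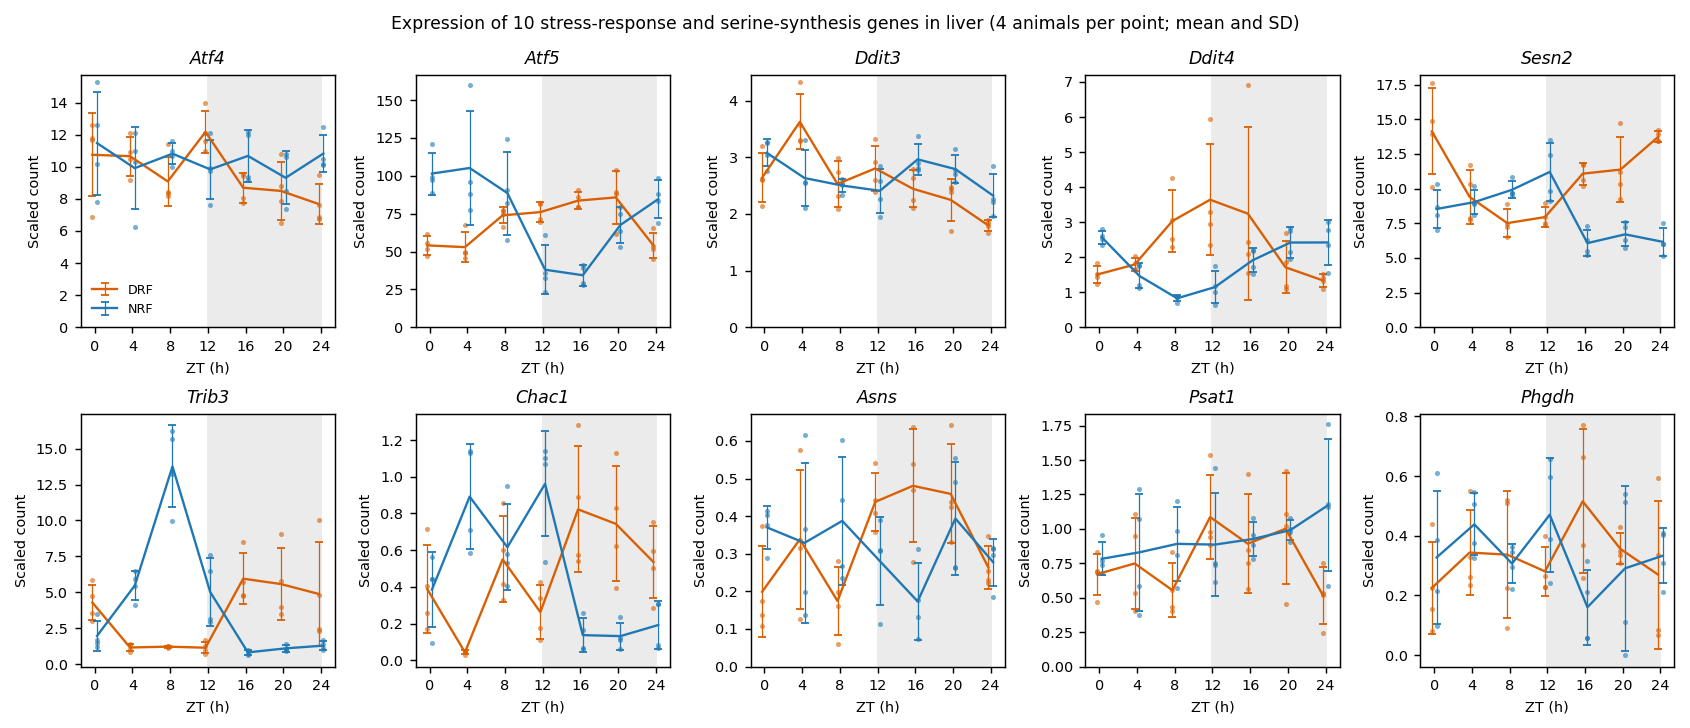
Scaled count (vertical axis) against ZT in hours (horizontal axis) for the 10 genes, with DRF in orange and NRF in blue. Points are animals, lines join group means, bars are SD over 4 animals and the grey field is the dark phase. Trib3 peaks at a mean of 13.8 at ZT8 under NRF and of 5.95 at ZT16 under DRF, while Atf4 stays between 7.68 and 12.2.

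Trib3 (ENSMUSG00000032715, chr2:152337422-152344032, minus strand, GRCm38, 4 exon blocks) encodes a pseudokinase that is induced by ATF4 and CHOP and restrains both AKT and ATF4. On the log2(scaled count + 1) scale it had the largest difference between regimens at a single time of the 10 genes. As a ratio of mean scaled counts, the gap of Chac1 at ZT4, given below, was wider. At ZT8 the 4 NRF livers held 15.7, 9.95, 13.2 and 16.2 scaled counts, and the 4 DRF livers held 1.13, 1.20, 1.26 and 1.26. The groups were far apart, with NRF 11.4-fold higher in mean scaled count and a log2 difference (DRF minus NRF) of -2.72 ± 0.27 (SE, adjusted p = 3.38e-10, limma).

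At ZT16, the order was turned. The DRF livers held 4.73, 4.84, 8.52 and 5.69 scaled counts of Trib3, and the NRF livers 0.979, 0.932, 0.707 and 0.626. DRF was 7.33-fold higher, with a log2 difference of 1.91 ± 0.27 (adjusted p = 8.43e-07, limma). Within NRF the mean ran from 0.811 ± 0.171 (SD, n = 4) at ZT16 to 13.8 ± 2.88 at ZT8, a 17-fold range. Within DRF it ran from 1.14 ± 0.393 at ZT12 to 5.95 ± 1.77 at ZT16, a 5.22-fold range. Trib3 was low at ZT4, ZT8 and ZT12 under DRF and low at ZT16, ZT20 and ZT24 under NRF. The DRF livers at ZT24 were spread widely (10, 2.27, 4.8 and 2.46 scaled counts). The fitted peak under NRF was at 7.82 ± 0.447 h (SE), and the one under DRF at 19.5 ± 0.642 h, 11.7 ± 0.782 h later.

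Chac1 (ENSMUSG00000027313, chr2:119351229-119354381, plus strand, 3 exon blocks) encodes an enzyme that breaks down glutathione and is a known target of ATF4. Its widest gap between regimens was at ZT4, where the DRF livers held 0.0515, 0.0528, 0.0438 and 0.0294 scaled counts and the NRF livers 0.710, 1.13, 0.587 and 1.14. No DRF liver came near an NRF liver, and the NRF mean was 20.1-fold higher. On the log2 scale the difference was -0.84 ± 0.14 (adjusted p = 7.61e-06, limma), a value that shows how the added 1 shrinks the change of a low gene.

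The order of the regimens was the opposite in the dark phase, where Chac1 was higher under DRF by 5.97-fold at ZT16 and by 5.61-fold at ZT20, with log2 differences of 0.67 ± 0.14 (adjusted p = 0.00047, limma) and 0.61 ± 0.14 (0.00118). At ZT8 the regimens overlapped, with 0.414, 0.856, 0.328 and 0.603 scaled counts under DRF and 0.407, 0.579, 0.948 and 0.532 under NRF. The DRF profile thus had a high group at ZT8 between low groups at ZT4 and ZT12 (mean 0.263 ± 0.147, SD, n = 4). A 12-h component was nevertheless not called for Chac1 under DRF (adjusted p = 0.352, limma). Chac1 peaked at 7.85 ± 0.665 h (SE, NRF) and at 17.6 ± 0.968 h (DRF), which put the shift at 9.77 ± 1.17 h.

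Atf5 (ENSMUSG00000038539, chr7:44812256-44816658, minus strand, 4 exon blocks) encodes a transcription factor close to ATF4 that is abundant in hepatocytes. Of its exon bases, 4.11% lie opposite exons of Il4i1 and Nup62. The NRF livers held 95.8, 77.2, 160.0 and 87.7 scaled counts at ZT4 and 28, 29.0, 41.2 and 39.2 at ZT16. The DRF livers held 49.0, 49.4, 45.6 and 67.6 at ZT4 and 79.3, 85.7, 79.1 and 90.4 at ZT16. The regimens did not overlap at either time, and they stood in opposite order.

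DRF was lower at ZT4 by a log2 difference of -0.94 ± 0.21 (adjusted p = 0.000619, limma), and it was higher at ZT16 by 1.28 ± 0.21 (1.15e-05). The fitted amplitude was 17.1 ± 2.95 (SE) scaled counts under DRF and 36.8 ± 5.47 under NRF, around rhythm-adjusted means of 70.3 ± 2.08 and 70.6 ± 3.86. Peaks lay at 15 ± 0.655 h and 3.07 ± 0.565 h, 12.0 ± 0.865 h apart.

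Sesn2 (ENSMUSG00000028893, chr4:132492032-132510501, minus strand, 10 exon blocks) encodes sestrin 2, a leucine-binding inhibitor of mTORC1 signalling that ATF4 induces. The DRF livers were high around lights on, with 13.9, 13.4, 14.2 and 13.4 scaled counts at ZT24, when the NRF livers held 7.54, 5.98, 5.97 and 5.14. All 4 DRF livers lay above all 4 NRF livers, with a 2.23-fold higher mean and a log2 difference of 1.05 ± 0.13 (adjusted p = 9.76e-08, limma). At ZT12 DRF was the lower regimen (7.51, 7.34, 7.95 and 8.98 against 9.10, 13.5, 9.80 and 12.4), with a log2 difference of -0.43 ± 0.13 (0.0204). The peak moved from 8.35 ± 0.737 h under NRF to 21.9 ± 0.645 h under DRF, a shift of 10.4 ± 0.98 h. Under NRF, Sesn2 was lower at ZT24 than at ZT0 (7.02, 8.68, 8.11 and 10.3), by 0.41 on the log2 scale (adjusted p = 0.0473, limma), where 7.82% of all genes differed between these times. That call was lost in 27 of 56 fits without 1 library, with adjusted p of up to 0.191.

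Ddit4 (ENSMUSG00000020108, chr10:59949669-59951834, minus strand, 3 exon blocks) encodes REDD1, another inhibitor of mTORC1, which glucocorticoids, hypoxia and ATF4 induce. At ZT8 the DRF livers held 2.51, 2.30, 3.07 and 4.25 scaled counts and the NRF livers 0.863, 0.699, 0.876 and 0.865. The DRF mean was 3.67-fold higher, with a log2 difference of 1.12 ± 0.21 (adjusted p = 0.00016, limma), and no values overlapped.

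Ddit4 was also higher under DRF at ZT12 (2.95, 2.36, 5.95 and 3.30 against 0.648, 1.17, 0.999 and 1.76 scaled counts). The DRF mean was 3.19-fold higher, with a log2 difference of 1.08 ± 0.21 (adjusted p = 0.000204, limma). At ZT16, a single DRF liver with 6.90 scaled counts stood above the other three (2.43, 1.55 and 2.09), and the regimens overlapped. DRF livers peaked at 12.1 ± 1.04 h (SE) and NRF livers at 21.3 ± 0.444 h. The shift was 9.14 ± 1.13 h, and without that liver it was 10.3 h. Over the 14 group means, Ddit4 and Trib3 had a Pearson correlation of -0.69, the lowest among pairs of the 10 genes, while Trib3 and Chac1 had the highest at 0.77. The groups share regimens and times, so these values are a description only.

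**Figure D2:**
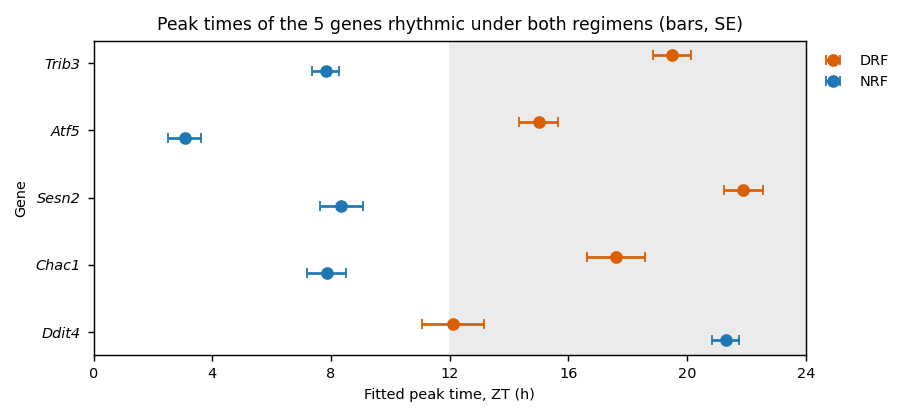
Fitted peak time (horizontal axis, ZT in hours) of the 5 dual-oscillating genes (vertical axis), with DRF in orange and NRF in blue, SE as bars and the dark phase in grey. Trib3, Chac1 and Sesn2 peak between 7.82 and 8.35 h under NRF and between 17.6 and 21.9 h under DRF, whereas the Ddit4 peaks lie at 21.3 (NRF) and 12.1 h (DRF).

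Asns (ENSMUSG00000029752, chr6:7675169-7693254, minus strand, 13 exon blocks) encodes asparagine synthetase, one of the best known ATF4 targets. It oscillated under DRF (adjusted p = 0.00288, joined rhythm test) with a peak at 16.2 ± 0.986 h (SE), and no rhythm was called under NRF (0.952). The rhythms differed (adjusted p = 0.0101, limma). At ZT16 the DRF livers held 0.538, 0.279, 0.636 and 0.470 scaled counts and the NRF livers 0.131, 0.312, 0.178 and 0.072. One pair of animals overlapped, and DRF was 2.78-fold higher in mean, with a log2 difference of 0.33 ± 0.10 (adjusted p = 0.0133, limma). Both the DRF rhythm and the difference rested in part on the animals numbered 3, since without them the adjusted p values were 0.454 (joined test) and 0.114 (limma). The difference was also lost without the animals numbered 4 (0.0775).

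Ddit3 (ENSMUSG00000025408, chr10:127290774-127296288, plus strand, 4 exon blocks) encodes CHOP, which promotes cell death under lasting stress. Of its exon bases, 4.73% lie opposite exons of Gm4189 and Mars, and a second row under the same symbol, which covers 105 bases, held 0 to 4 recovered counts and was kept apart. Its 24-h rhythm differed between regimens (adjusted p = 0.0273, limma), although a rhythm was called under neither. A rhythm under NRF was called with deposited values (adjusted p = 0.00725, joined test), with the trend of level with gene length removed (0.00562) and without ZT24 (0.0369). The clearest time was ZT4, with 4.33, 3.58, 3.29 and 3.31 scaled counts under DRF and 2.55, 2.11, 3.31 and 2.57 under NRF. Overlap was at 1 NRF liver, and the DRF mean was 1.38-fold higher. The log2 difference was 0.35 ± 0.10 (adjusted p = 0.00824, limma). This call was lost with the length trend removed and without the animals numbered 1 or 2. The call for a different rhythm was lost without DRF ZT20 replicate 3, with an adjusted p of 0.0522 (limma). The rhythm under DRF (adjusted p = 0.0972, joined test) was called without DRF ZT8 replicate 1 (0.0151) or replicate 4 (0.0308). Under DRF, Ddit3 was lower at ZT24 (1.89, 1.84, 1.67 and 1.79) than at ZT0 (2.15, 3.2, 2.60 and 2.61), by 0.37 on the log2 scale (adjusted p = 0.0277, limma), where 3.07% of all genes differed between those times. That call was lost when DRF ZT0 replicate 2, 3 or 4 or DRF ZT24 replicate 3 or 4 was left out (adjusted p from 0.0618 to 0.123, limma) and when a trend of level with gene length was removed.

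Atf4 (ENSMUSG00000042406, chr15:80255184-80257541, plus strand, 1 exon block), the central factor of the pathway, passed none of the tests of 24-h rhythm or of regimen with all livers, although its 7 DRF groups differed (adjusted p = 0.0343, limma). A rhythm under DRF was called without ZT0 (adjusted p = 0.0203, joined test). Its group means lay between 7.68 ± 1.27 (SD, n = 4; DRF ZT24) and 12.2 ± 1.32 (DRF ZT12) scaled counts, while those under NRF lay between 9.32 ± 1.67 and 11.5 ± 3.21. The widest gap was at ZT24, where the DRF livers held 6.72, 7.64, 6.88 and 9.49 and the NRF livers 10.5, 10.2, 12.5 and 10.1. These 2 groups did not overlap, but the log2 difference of -0.45 ± 0.17 did not pass (adjusted p = 0.0687, limma). The rhythm-adjusted mean differed by -0.09 ± 0.07 (log2, SE, adjusted p = 0.534, limma). Without DRF ZT0 replicate 1, Atf4 was lower at ZT24 than at ZT0 under DRF (adjusted p = 0.0395, limma, against 0.171 with that liver).

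Phgdh (ENSMUSG00000053398, chr3:98313170-98339990, minus strand, 13 exon blocks) encodes the first enzyme of serine synthesis from glycolysis, and Psat1 (ENSMUSG00000024640, chr19:15904678-15947337, minus strand, 12 exon blocks) the aminotransferase that follows it. Neither oscillated under either regimen, and neither passed the test over all 7 times (adjusted p = 0.187 and 0.128, limma). Each passed at a single time. Phgdh at ZT16 was at 0.770, 0.369, 0.258 and 0.663 scaled counts under DRF and 0.0577, 0.314, 0.211 and 0.0586 under NRF, with overlap, a 3.22-fold higher mean under DRF and a log2 difference of 0.38 ± 0.13 (adjusted p = 0.0425, limma). Psat1 at ZT24 was at 0.523, 0.246, 0.537 and 0.751 under DRF and 1.16, 0.586, 1.18 and 1.76 under NRF, again with overlap. The NRF mean was 2.27-fold higher, and the log2 difference was -0.50 ± 0.16 (0.0256). Without NRF ZT24 replicate 2, Psat1 passed the test over all times (0.0353), and without DRF ZT4 replicate 2 or 3 or DRF ZT16 replicate 4 it was called rhythmic under DRF (0.0146, 0.0326 and 0.0354, joined test). In 1 NRF liver at ZT20, Phgdh was listed at 0.

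At each time DRF and NRF livers were compared directly. At ZT16 the count was highest, with 6 of the 10 genes higher under DRF (Atf5, Sesn2, Trib3, Chac1, Asns and Phgdh) and 0 lower (1 at an unadjusted p under 0.05, limma), where 8.75% of all genes were higher and 6.41% lower. Of these 6, Chac1, Asns and Phgdh were not among the genes tested when a median scaled count of at least 1 was required. The genes higher at ZT16 numbered 4 to 6 when the animals of 1 replicate number were left out. At ZT20, 3 genes were higher (Sesn2, Trib3 and Chac1; 7.68% of all genes) and 0 lower (6.06%; 1 at an unadjusted p under 0.05, limma). At ZT4, 3 genes were lower under DRF (Atf5, Trib3 and Chac1; 9.55% of all genes) and Ddit3 was higher (10.8%). ZT12 had 2 higher (Atf5 and Ddit4; 7.06%) and 3 lower (Sesn2, Trib3 and Chac1; 8.1%). ZT8 had Ddit4 higher (5.71%) and Trib3 lower (7.28%). Sesn2 and Trib3 were higher and Atf5 lower at ZT0 (7.97% and 8.01%), and at ZT24 Psat1 was lower as well (7.1% higher, 6.94% lower). The 2 genes lower at ZT24 became 1 without the animals numbered 1 or 2 and 0 without those numbered 3 or 4. The 2 genes higher at ZT0 became 1 with a pseudocount of 10 and without the animals numbered 1 or 3, and the single gene higher at ZT4 became 0 as given for Ddit3.

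Over all 7 times, 7 of the 10 genes differed between regimens at 1 or more times, against 42.5% of all genes. In the same 7 genes the difference varied with time (regimen by time interaction), against 38.3%.

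**Figure D3:**
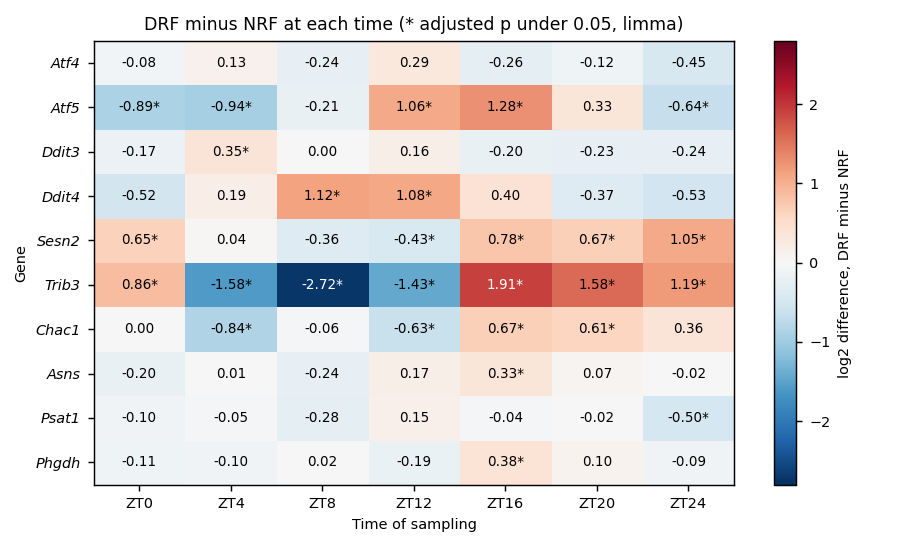
Differences between regimens on the log2(scaled count + 1) scale (DRF minus NRF) for the 10 genes (rows) at the 7 times (columns). Red cells are higher under DRF, blue cells lower, and a star marks an adjusted p under 0.05 (limma). Trib3 runs from -2.72 at ZT8 to 1.91 at ZT16, and the ZT16 column holds 6 stars.

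The rhythm-adjusted mean, the level around which a gene oscillates, was higher under DRF for Ddit4 and Sesn2 and lower for 0 of the 10 genes (0 also at an unadjusted p under 0.05, limma), where 4.13% of all genes were higher and 2.7% lower. For Sesn2 the fitted means were 10.4 ± 0.361 (SE) and 8.40 ± 0.303 scaled counts under DRF and NRF, with a log2 difference of 0.27 ± 0.06 (adjusted p = 0.00277, limma). For Ddit4 they were 2.49 ± 0.213 and 1.73 ± 0.073, with a log2 difference of 0.32 ± 0.08 (0.00502). The Ddit4 call was lost when the animals numbered 1 or those numbered 3 were left out, at log2 differences of 0.27 and 0.28. The Trib3 means of 3.29 ± 0.357 under DRF and 4.57 ± 0.485 under NRF did not differ by the test (adjusted p = 0.468, limma).

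Since the meal was moved by 12 h, the DRF rhythm was also compared with the NRF rhythm moved by 12 h. It differed from the moved NRF rhythm for Atf5 alone (adjusted p = 0.00636, limma), against 34.2% of all genes. For the other dual-oscillating genes the test was not passed, with an adjusted p of 0.0809 for Ddit4, 0.118 for Trib3, 0.162 for Chac1 and 0.276 for Sesn2, which does not show that the rhythms were alike. Beside the amplitudes of Atf5 given above, those of Trib3 were 2.87 ± 0.526 (SE) under DRF and 5.64 ± 0.71 under NRF. The latter was 123% of the fitted mean, so the fitted curve turns negative in part of the cycle and describes the profile only roughly. The Atf5 call was lost without the animals numbered 4, and Ddit4 passed without DRF ZT16 replicate 3 (adjusted p = 0.0302, limma).

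Group by group, 5 of the 10 genes (Atf5, Ddit4, Sesn2, Trib3 and Chac1) differed from the NRF group 12 h away at 1 or more times, against 40.7% of all genes. These comparisons use the same libraries as the direct ones. Trib3 at DRF ZT20 (3.99, 9.06, 5.77 and 3.46 scaled counts) was below NRF ZT8 (15.7, 9.95, 13.2 and 16.2), by 1.22 ± 0.27 on the log2 scale (adjusted p = 0.00102, limma), where 16.3% of all genes differed. Sesn2 at DRF ZT4 was above NRF ZT16, at means of 9.39 ± 1.91 and 6.07 ± 0.931 (SD, n = 4) and a log2 difference of 0.55 ± 0.13 (adjusted p = 0.00466, limma). Atf5 was higher in that comparison too (0.61 ± 0.21, adjusted p = 0.0375, limma), where 14.7% of all genes differed. Chac1 at DRF ZT8 (0.550 ± 0.234) was above NRF ZT20 (0.133 ± 0.0733), by a log2 difference of 0.44 ± 0.14 (adjusted p = 0.0284, limma), where 11.6% of all genes differed. With DRF ZT0 and ZT24 averaged against NRF ZT12, Chac1 was lower (-0.43 ± 0.12, adjusted p = 0.023, limma). Atf5 was higher in that comparison (0.57 ± 0.18, adjusted p = 0.0467, limma). Ddit4 at DRF ZT16 was above NRF ZT4 (0.64 ± 0.21, adjusted p = 0.0296, limma). For this comparison and for that of DRF ZT0 and ZT24 with NRF ZT12, no share of all genes is given here.

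**Figure D4:**
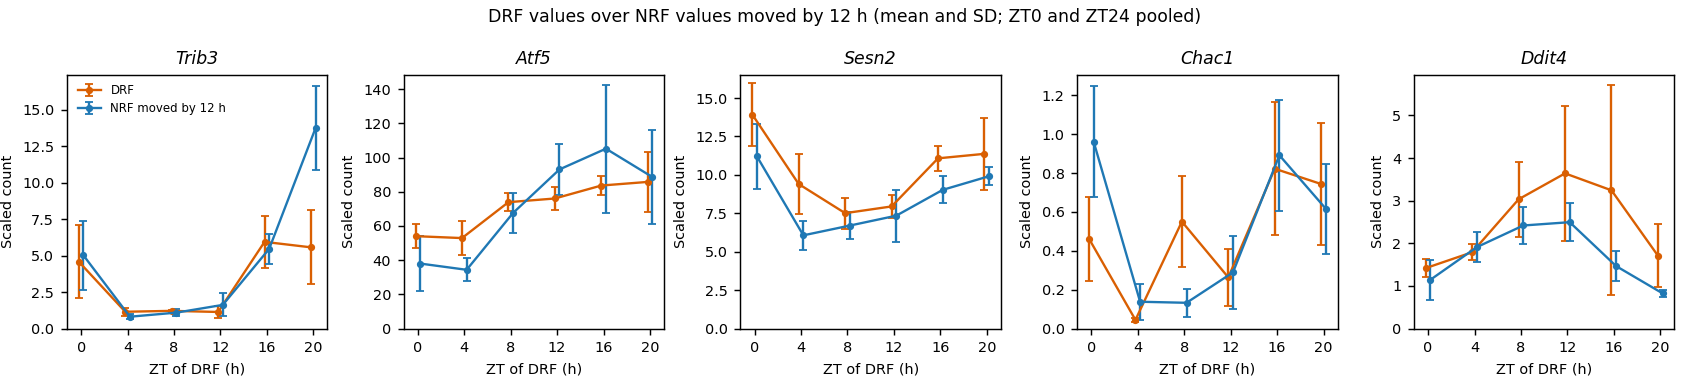
Scaled count (vertical axis) of the 5 dual-oscillating genes against the ZT of DRF in hours (horizontal axis), with NRF values moved by 12 h and ZT0 and ZT24 pooled. Points are means and bars SD. For Trib3 the curves part at ZT20, where DRF is at 5.57 and the moved NRF at 13.8, and for Chac1 at ZT8, where DRF is at 0.550 and the moved NRF at 0.133. At ZT0, Chac1 under DRF lies below the moved NRF (0.962).

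No 12-h component was called for any of the 10 genes under DRF or NRF, where 4.69% and 2% of all genes had one (limma). At an unadjusted p under 0.05, 1 gene passed under DRF (Ddit3, 0.0169, limma) and 2 under NRF (Trib3, 0.00314, and Atf5, 0.0116). Without DRF ZT24 replicate 1, Trib3 passed under NRF (adjusted p = 0.0488, limma).

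The promoters of the 10 genes were searched for the C/EBP-ATF response element TGATGNAA on both strands, as a description. RefSeq promoters of GRCm38.p6 (300 bases, from 250 before the start to 50 after it) gave 12 promoters of all 10 genes. The element was in 3 of the 12, and it was in 3.97% of all 32851 promoters of that length. The windows of 30 bases around the matches are shown 5′ to 3′ on the gene's strand, with the match in capitals. Those of Trib3 and Chac1 read on the opposite strand, so the capitals there are the reverse complement.

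Trib3: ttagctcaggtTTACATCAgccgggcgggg

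Chac1: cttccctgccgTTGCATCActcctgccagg

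Asns: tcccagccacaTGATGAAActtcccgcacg

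The Trib3 window lies at chr2:152344028-152344057 (minus strand) and its match begins at base 15 after the start. The Chac1 window lies at chr2:119351038-119351067 (plus strand), with the match 193 bases before the start, and the Asns window at chr6:7693214-7693243 (minus strand), with the match 23 bases before it. These 3 genes were higher under DRF at ZT16, as were Atf5, Sesn2 and Phgdh, in whose promoter windows these letters were not found. A match is a description of the letters and not a binding site.

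Other genes of the pathway were read from lists. The share with a different rhythm, 38.7% of all genes, was 57.3% among genes with a median scaled count of at least 1. Most listed genes had mean scaled counts above 1, so the higher share is the nearer comparison for them. Among 8 genes for eIF2 kinases, phosphatases and eIF2 subunits, the rhythm differed in 7 (38.7% of all genes) and no rhythm-adjusted mean differed (3 at an unadjusted p under 0.05, limma). Eif2ak1, the kinase that senses haem, had its DRF peak at 20.5 h and its NRF peak at 8.80 h (adjusted p = 3e-14, limma). Ppp1r15b, a phosphatase subunit that acts on eIF2, peaked at 5.10 and 17.2 h, and Eif2ak2, the kinase activated by double-stranded RNA, at 5.95 and 22 h. Eif2ak4, the kinase that senses uncharged tRNA, peaked at 14.3 and 4.39 h in the same order, and its group means ran only from 8.22 ± 0.694 to 11.1 ± 0.631 scaled counts (SD, n = 4). Ppp1r15a, the stress-induced phosphatase subunit, peaked at 23.2 and 9.83 h. Eif2ak3, the kinase of the endoplasmic reticulum, oscillated under neither regimen, and its rhythm was not called different (adjusted p = 0.176, limma). It did differ between regimens at 1 or more times (adjusted p = 0.0026, limma), as 42.5% of all genes did.

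Of 8 partners of ATF4 and related stress factors, the rhythm differed in 5 (38.7% of all genes), or in 3 without the animals numbered 1. Cebpb, which pairs with ATF4, peaked at 3.2 and 11.1 h (adjusted p = 3.38e-06, limma). The highest means of Cebpd were 1.41 ± 0.271 scaled counts at DRF ZT0 and 1.92 ± 0.485 at NRF ZT12 (SD, n = 4). Atf3 was highest at ZT4 under DRF (21.8 ± 5.27) and at ZT20 under NRF (13.2 ± 3.95).

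Of 18 further ATF4 target genes, the rhythm differed in 8 (38.7% of all genes), and the rhythm-adjusted mean was higher under DRF in 3 (4.13%) and lower in 2 (2.7%). The 3 were Vldlr (log2 difference 0.68 ± 0.08, SE), Gpt2 (0.56 ± 0.07) and Cth (0.51 ± 0.08). The 2 lower genes were Slc6a9, given below, and Slc7a5 (-0.17 ± 0.05). Apart from Slc6a9, these genes were named after their values were seen. Eif4ebp1, an inhibitor of translation initiation, peaked at 0.608 and 9.19 h. Slc6a9, a glycine transporter, was highest at ZT12 under NRF (21.0 ± 3.11 scaled counts) and had a lower rhythm-adjusted mean under DRF, by 0.30 ± 0.07 on the log2 scale (adjusted p = 0.00149, limma). Herpud1, a gene of protein quality control in the endoplasmic reticulum, peaked at 23.4 and 11.9 h. Fgf21, a liver hormone of fasting and amino acid lack, was low throughout. It was highest at DRF ZT20 (0.396 ± 0.442) and NRF ZT4 (0.223 ± 0.237), with large SD, and its peaks were 9.79 ± 1.91 h apart (SE).

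Among 12 enzymes of serine, glycine and one-carbon metabolism, the rhythm differed in 8 (38.7% of all genes). The mean was higher under DRF in 3 (4.13%) and lower in 0 (2.7%). At an unadjusted p under 0.05 (limma) these numbers were 7 and 0, for which no share of all genes is given here. Psph, which completes serine synthesis after Phgdh and Psat1, was called rhythmic under each regimen, but only narrowly under NRF (adjusted p = 0.0465, joined test). Its peaks lay at 9.38 (DRF) and 20.7 h (NRF, adjusted p for a different rhythm = 2.27e-05, limma). Its highest group means were 6.33 ± 0.346 at DRF ZT4 and 6.52 ± 1.35 at NRF ZT20 (SD, n = 4). Cbs, which joins serine to homocysteine, peaked at 15.7 and 2.38 h. Gldc, of the glycine cleavage system, peaked at 15.2 and 22.6 h, and Mthfd1l, of mitochondrial one-carbon metabolism, at 5.93 and 13.3 h.

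Of 20 cytosolic aminoacyl-tRNA synthetase genes, which as a class include ATF4 targets, the rhythm differed in 15 (38.7% of all genes). Their rhythm-adjusted mean was higher under DRF in 0 (4.13%; 0 also at an unadjusted p under 0.05, limma) and lower in 1 (2.7%). Tars rose under DRF from 22.9 ± 1.37 at ZT0 to 62.0 ± 0.951 at ZT12 and was at 24.5 ± 1.84 at ZT12 and 76.3 ± 5.28 at ZT0 under NRF (SD, n = 4; adjusted p for a different rhythm = 9.79e-20, limma). Its peaks lay at 12.8 and 23.8 h, those of Aars at 7.14 and 20 h and those of Iars at 10.3 and 19.3 h, beside 12.1 and 21.3 h for Ddit4. Of 10 genes of mTORC1 control, the rhythm differed in 7 (38.7% of all genes). The rhythm-adjusted mean was higher under DRF in 1 (4.13%) and lower in 1 (2.7%). The lower one was Mtor, with a log2 difference of -0.15 ± 0.04 (SE, adjusted p = 0.0246, limma). Mtor, the kinase itself, peaked at 21.1 and 8.66 h, Tsc1, which restrains it, at 17.2 and 7.5 h, and Castor1, an arginine sensor, at 20.2 and 9.38 h, so these 3 genes peaked in the dark phase under DRF and in the light phase under NRF, as Trib3, Chac1 and Sesn2 did.

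In all, 43 listed genes oscillated under both regimens. Of these, 25 were phase-inverted, 13 lay between and 5 were phase-locked, namely Cebpg, Slc7a5, Cth, Aldh18a1 and Tsc2, which were named after their values were seen. Over all dual-oscillating genes the phase-inverted share was 49.6%, as above.

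**Figure D5:**
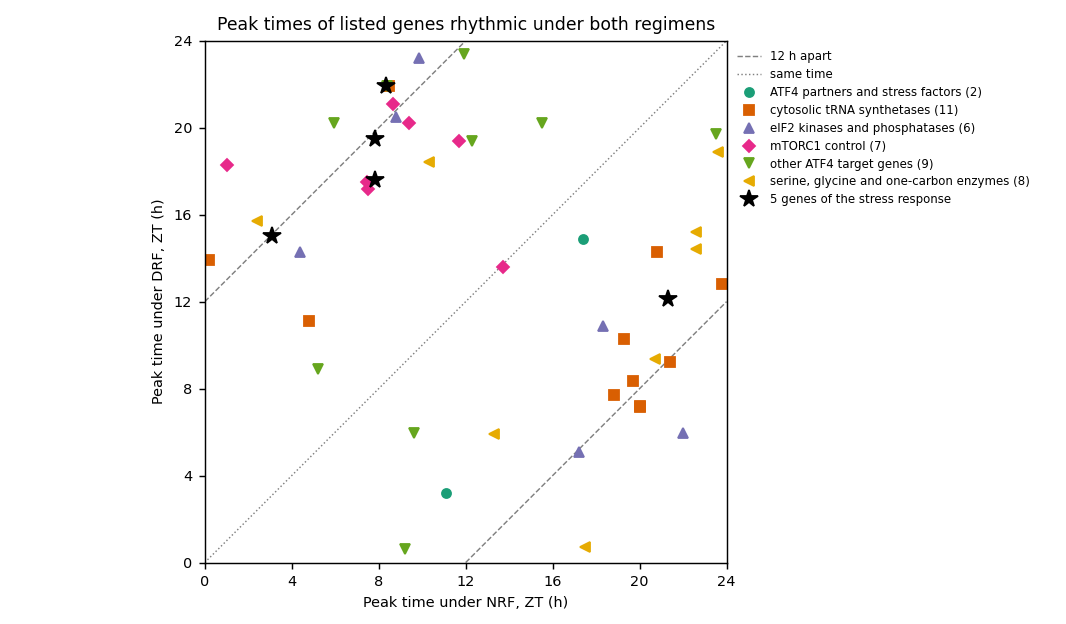
Fitted peak time under DRF (vertical axis, ZT in hours) against that under NRF (horizontal axis) for the 43 listed genes that oscillated under both regimens, coloured by list, with the 5 dual-oscillating genes of the stress response as stars. Dashed lines mark peaks 12 h apart and the dotted line equal peaks. The aminoacyl-tRNA synthetases lie mostly at the lower right with Ddit4, while Trib3, Chac1 and Sesn2 lie at the upper left.

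For each of the 10 genes, the 3 genes with the most alike profile were found by Pearson correlation over the 14 group means of log2(scaled count + 1), among 13555 genes. The profile of Trib3 was closest to that of Rcl1 (r = 0.947), Neu1 and Flcn (both 0.944), that of Atf5 to Sqstm1 (0.96), Eps8l2 (0.959) and Pla2g12b (0.952), and that of Chac1 to Arrdc2 (0.946), Fbxo32 (0.937) and Slc8b1 (0.919). Sesn2 was closest to Sirt3 (0.933), Pdk2 (0.932) and Dqx1 (0.909), and Ddit4 to Rnf11 (0.93), Proser2 (0.922) and Edem1 (0.92). Ddit3 had Orai1 (0.935), D030055H07Rik (0.908) and Gm6598 (0.897). For the other 4 genes the best values were 0.881 for Asns (Frzb, then Cog2 and Serpinb6b), 0.852 for Psat1 (Zfp623, then Smcr8 and Gdap2), 0.806 for Atf4 (Pwwp2b, then Nos3 and Npl) and 0.79 for Phgdh (H2-Eb1, then Notch4 and Gm12248). These are descriptions over 14 means that share libraries and times.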

How the data were processed

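Per the labels, liver RNA was depleted of ribosomal RNA and made into strand-specific libraries read as pairs (another label field names polyA RNA). The submitters' processing notes name CASAVA 1.8, featureCounts 1.5.0-p3, mm10 and GRCm38.p6; the use of strand in counting and the aligner are not given in the sources used here. The authors deposited gene values named TPM. They were not linear in reads, so the deposited values were treated as a score: value times exon length (GENCODE vM21) followed a·ln(1 + f·k) with whole k. The scaled count is f·k. Of 25415 genes listed, 25397 were rebuilt, 128 of them too deep for wholeness to be judged, and 18 were left out. In values held out of the fit, 96.8% were whole within 0.05, where 10% would be by chance. All 10 genes were whole with their annotated length. Of the listed genes named in the text, Cbs and Gldc needed a length searched on the values. Eif2ak1, Ppp1r15b, Aars, Iars, Mtor, Cebpg, Cth and Gpt2 were whole within 0.2 only. Because recovered counts are not reads, no count test was run, and the error is the spread among the 4 animals of a group.

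The design had named linear TPM, and its tests were kept on scaled counts. Rhythm within a regimen was tested over 28 libraries with Kendall's rank statistic (exact p) for 12 cosine templates (peaks 2 h apart, Bonferroni) and a cosinor F test, joined by Fisher's method. Both read the same values, so the joined p is too small. All other tests were limma 3.58.1 (trend) on log2(scaled count + 1) in R 4.3.3. Adjustment was Benjamini-Hochberg over all genes whose deposited values averaged at least 0.1, and the threshold was 0.05. Shares of all genes are at that threshold of adjusted p, and none is given for an unadjusted p. Peak, amplitude and shift came from least-squares cosinor fits with delta-method SE and no p. Scripts were tested on simulated data. Columns were assigned to groups from their names and the sample titles. Replicate numbers name different animals and do not pair them.

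Alternatives were other rhythm tests, deposited values, pseudocounts of 0.1 and 10, filters, median-of-ratios scaling, removal of a trend with length (a loess curve per library, applied in proportion for genes with a mean log2 value under 1), omission of ZT0 or ZT24, a replicate block and omission of replicates. Named genes were the 10 genes, the 3 of each list with the lowest adjusted p for a different rhythm, Fgf21, Psph, Eif2ak4, Eif2ak3, Ppp1r15a and the 3 most alike genes. The genes and lists were chosen with earlier results of these data known. The transcript and circRNA tables and a column that held no values were not used.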

Additional observations from a re-analysis of the deposited data

Results flagged for a closer look

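In 10 of 140 groups of 4 livers, 1 animal stood apart from the other 3 by Dixon's 95% criterion, which chance gives in about 1 of 20 groups. Of high values, Ddit4 was at 6.90 scaled counts in DRF ZT16 replicate 1 (others 1.55 to 2.43), Atf4 at 11.4 in DRF ZT8 replicate 2 (others 8.18 to 8.40), Sesn2 at 10.8 in NRF ZT8 replicate 4 (others 9.49 to 9.70), and Psat1 at 1.54 in DRF ZT12 replicate 4 and at 1.44 in NRF ZT12 replicate 3. Of low values, Atf4 was at 6.90 in DRF ZT0 replicate 1 (others 11.7 to 12.6), Chac1 at 0.536 in NRF ZT12 replicate 1 (others 1.07 to 1.14), Ddit3 at 1.7 in DRF ZT20 replicate 3, Ddit4 at 0.699 in NRF ZT8 replicate 2 and Asns at 0.185 in NRF ZT24 replicate 2. The 10 values came from 10 different libraries.

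The difference between DRF and NRF varied with time in 7 genes by the regimen by time interaction, with adjusted p (limma) of 1.94e-15 for Trib3, 1.25e-09 for Atf5, 1.56e-09 for Sesn2, 3.76e-09 for Chac1, 1.63e-06 for Ddit4, 0.00169 for Ddit3 and 0.00686 for Asns.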

How the results depend on the processing

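Under every alternative run, Atf5, Ddit4, Sesn2, Trib3 and Chac1 kept their different 24-h rhythm wherever tested, with a highest adjusted p of 0.000356 (Chac1, limma). A reversal was looked for only in the called rhythm-adjusted means of Ddit4 and Sesn2, which stayed higher under DRF. The cause of the changes below was not tested. A median scaled count of at least 1 left Chac1, Asns, Psat1 and Phgdh untested. Omission of the filter on deposited values only repeated the main fit, since 0 of the genes used averaged under 0.1. The number of genes off the NRF rhythm moved by 12 h (1) was 2 with deposited values, with a pseudocount of 10 and with the length trend removed, and 0 to 1 when animals of 1 replicate number were left out. A 12-h component was called for 1 gene under DRF without ZT0 and for 1 under NRF with a pseudocount of 10. The single gene that differed between ZT24 and ZT0 under DRF (Ddit3) became 0 with the length trend removed and 0 to 1 without a replicate number. Under NRF (Sesn2) it became 0 with deposited values, a pseudocount of 10, median-of-ratios scaling, the length trend removed and the replicate block, 2 with a median scaled count of at least 1 (which tests fewer genes), 0 without DRF ZT16 replicate 1 and 0 to 1 without a replicate number. With the length trend removed, 1 gene was lower under DRF at ZT16 (0 before). Genes with a different rhythm-adjusted mean numbered 1 to 2 without a replicate number, and ATF4 partners with a different rhythm 3 to 4 (5 with all animals).

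Phase shifts with deposited values were 10.4 h for Atf5 and 11.4 h for Sesn2. For Ddit3 the shift was 7.77 h without ZT24, and for Ddit4 it was 10.3 h without DRF ZT16 replicate 1, an alternative chosen after seeing the data, as were all omissions of 1 library. Without a replicate number the shift ran from 8.55 to 10.1 h for Ddit4, from 10.8 to 12.0 h for Trib3, from 0.0713 to 7.98 h for Psat1 and from 5.79 to 11.1 h for Phgdh. The rhythm of Chac1 under DRF had an adjusted p of 0.0519 (joined test) without the animals numbered 1, and that of Asns one of 0.0507 by the rank test alone. The rhythm of Ddit3 under DRF passed in limma's cosinor (0.0359) and without ZT24 (0.0478), and Psat1 was called rhythmic under DRF (0.0386) and different at 1 or more times (0.0399) without the animals numbered 2. The difference at 1 or more times was lost for Asns without those numbered 1, 3 or 4 (0.0703, 0.0688 and 0.0975, limma) and for Ddit3 without those numbered 2 (0.0558), as was the different rhythm of Ddit3 without those numbered 2, 3 or 4 (0.188, 0.0927 and 0.0679).

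Same-numbered animals did not deviate together (mean correlation 0.00516, above 0.1 in 28 of 364 pairs). With the replicate block 7 genes had a different rhythm, 2 a different mean and 1 was off the moved rhythm, the numbers also found without it. Levels moved with gene length between groups, by an index from -0.128 (DRF ZT8) to 0.115 (DRF ZT20). In both regimens the index was negative at ZT0, ZT4 and ZT8 and positive from ZT12 to ZT24. Between ZT0 and ZT24 it turned from -0.0544 to 0.0848 under DRF and from -0.108 to 0.0893 under NRF. It thus ran with the order of sampling times on which the rhythm calls rest. Low recovered counts limit Chac1, Asns, Psat1 and Phgdh, and 4 animals per group limit every comparison.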
